A study of Gallus gallus with 24 samples.

Results

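Spleen of Leghorn chicks was compared with spleen of Fayoumi and broiler chicks 16 h after challenge with SE, an abbreviation that the labels leave unexpanded. The 6 arrays of this comparison were chosen by their titles from the 24 of the series: 2 Leghorn, 2 Fayoumi and 2 broiler arrays. The rest of the series holds the same 3 lines in spleen taken at 2 h and in cecum taken at either time. Every array carried RNA from 2 sources on a spotted array, and each probe gave 1 log2 ratio of the pair.

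In all 3 groups the source for channel 1 was 3 chicks challenged at 1 day of age, and the source for channel 2 was 3 chicks of the same line without challenge. The lines therefore differed in genotype, and apart from the slide all other labelled conditions were shared. The line that the 16 h labels call Leghorn is called G-B1 on a 2 h array, and no allele is given for any line. For each line, 1 array is titled as a replicate and 1 is not. The untitled ones are called the first arrays here and lay on slides 45 to 47, and the replicate arrays lay on slides 48 to 50. The labels do not say whether a replicate array held the same RNA, RNA of other chicks, or the same RNA with the dyes exchanged. Spread between birds within the 3 cannot be seen on any array. P-values measure only the spread between arrays, which may be technical.

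The spleen filters blood, and in birds, which lack the chains of encapsulated lymph nodes found in mammals, it is a main site where macrophages, B cells and T cells meet bacteria carried in blood. Leghorns are egg-laying birds, broilers are bred for meat, and the Fayoumi is an old Egyptian breed often used in studies of disease resistance. A ratio of challenged to unchallenged RNA measures the response of a line and not its resting level. In whole spleen, fewer cells of a type and less RNA per cell cannot be told apart. The probes carry clone identifiers, and 0 of them were found in the gene table used here, so no marker of spleen cells could be checked and no gene list could be counted. Results are given by clone identifier and no role is given to any clone.

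The 2 Leghorn arrays stood out in 3 probes with ratios above 3 on both: C0004126_P19, Pat_4A2 and C0004113_B19. The same probes were lower on every Fayoumi and broiler array. At the other end, Pat-19_f8 and 2 probes with a similar profile, C0004119_I2 and Pat-18_a3, had their lowest values of the 6 on the Leghorn arrays, at -1.79 or less there and at -0.78 or more on the 4 others. None of the 15609 probes passed limma's test of Leghorn against the mean of the other lines at an adjusted p of 0.05. The differences are therefore given as values on these arrays, and no probe is called changed.

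The sign of the ratios was not settled. The dyes are not named, and the first and replicate arrays of a line did not run alike: over all probes their correlation was 0.08 in Leghorn, -0.65 in Fayoumi and -0.14 in broiler. Apart from the Leghorn replicate array, arrays of a set were more alike. The first arrays correlated at 0.61 between Leghorn and Fayoumi, at 0.29 between Leghorn and broiler and at 0.30 between Fayoumi and broiler. Among replicate arrays, Fayoumi and broiler correlated at 0.62, while Leghorn correlated with them at 0.15 and 0.16. Across sets, the first Leghorn array opposed the Fayoumi replicate array at -0.52 and the broiler replicate array at -0.44. The Leghorn replicate array correlated with the first broiler array at 0.15 and with the first Fayoumi array at -0.28. A value called positive is positive as deposited, and none is read as more RNA in challenged chicks. The comparisons were repeated after the replicate arrays were turned in sign.

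**Figure D1:**
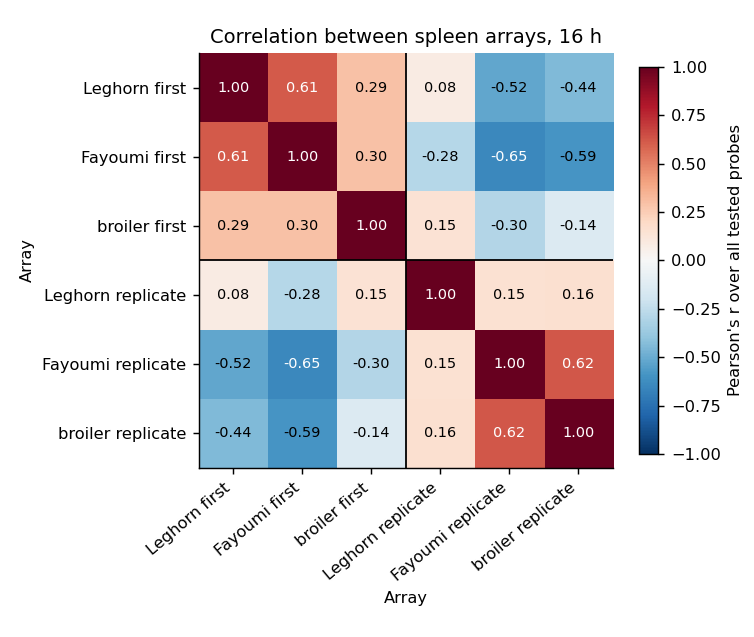
Pearson correlation across 15609 centred probes for each pair of the 6 spleen arrays at 16 h. The first and replicate Fayoumi arrays oppose each other at -0.65, and the largest values off the diagonal are 0.62 for the Fayoumi and broiler replicate arrays and 0.61 for the first Leghorn and Fayoumi arrays.

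The arrays also differed in width. The SD over probes was 0.438 and 0.648 on the first and replicate Leghorn arrays, 0.470 and 0.480 on the Fayoumi arrays, and 0.276 and 0.657 on the broiler arrays. Probes beyond 1 in size made up 0.275% of the first broiler array and 12.1% of its replicate. Before centring, the array medians ran from -0.90 on the broiler replicate array to 0.55 on the Leghorn replicate array. Control spots with names of plant genes, which number 128, had centred medians from -0.83 on the broiler replicate array to 0.56 on the first Leghorn array. Chicken genomic control spots had centred medians from -1.46 on the Leghorn replicate array to 0.16 on the first Fayoumi array. The part of these differences between arrays in the results below was not tested beyond the settings given with them.

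The main comparison asked which probes had a different ratio in Leghorn spleen than in the spleen of the other lines. In limma's test 0 of 15609 probes (0%) passed at an adjusted p of 0.05, and the smallest adjusted p was 0.999. At an unadjusted p under 0.05 there were 302 probes (1.93%), of which 44 (0.282%) were positive and 258 (1.65%) negative. As deposited without centring, the unadjusted counts were 26 positive and 9 negative, with the median of all probes at 0.41. With quantile normalization they were 198 and 207, and after scaling to equal spread 163 and 489. With the replicate arrays turned they were 215 and 15. Single arrays moved the unadjusted count too: it was 790 without the first Leghorn array, 38 without the Leghorn replicate array and 137 without the broiler replicate array. Negative probes stayed more numerous with array weights (134 positive and 532 negative) and with the plant spots as a covariate (203 and 839). The same held on the 6 arrays alone (101 and 293). The direction of the small-p probes thus depended on centring, quantile normalization and the sign. It also depended on the Leghorn replicate array, without which positive probes were the more numerous. A typical probe's difference had a 95% interval reaching 1.08 to either side on the log2 scale. This interval is not adjusted for the number of probes, and differences of 2.78 and -3.29, given below, did not pass either. The interval also takes no account of same-numbered arrays, which deviated together between lines. With a term for the replicate arrays of each tissue and time, a replicate block, the interval reached 0.77. In that fit 0 probes passed and 937 had an unadjusted p under 0.05, of which 321 were positive and 616 negative. On the 6 arrays alone, with that block, 921 were positive and 901 negative, so negative probes were no longer more numerous.

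Taken line by line, Leghorn against Fayoumi gave 0 probes (0%) past the threshold and 222 (1.42%) at an unadjusted p under 0.05. Leghorn against broiler gave 0 (0%) and 182 (1.17%), and 2 passed in the values as deposited. Fayoumi against broiler gave 0 (0%) and 27 (0.173%). Each of these 3 had an interval with a median half-width of 1.24. These pairs share arrays, so their counts are not independent of one another.

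The ranges of the arrays were compared without a test. Both Leghorn arrays lay above all 4 others for 744 probes (4.77%) and below all 4 for 984 (6.3%). The same count with Fayoumi set apart was 601 (3.85%) above and 438 (2.81%) below, and with broiler set apart 481 (3.08%) above and 461 (2.95%) below. With the replicate arrays turned, Leghorn lay above for 810 (5.19%) and below for 777 (4.98%), so below no longer outnumbered above. Either held for 1728 probes (11.1%) before turning. If the 6 arrays were exchangeable, either would hold for a share of 0.133. Same-numbered arrays deviated together between lines, so the arrays were not exchangeable. That share therefore cannot decide whether 11.1% is an excess. After turning, the counts were 640 (4.10%) above and 341 (2.18%) below for Fayoumi and 589 (3.77%) and 785 (5.03%) for broiler.

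The first and the replicate arrays give the Leghorn difference separately, since they share no array. Over 15609 probes the 2 differences had a Pearson correlation of 0.28 and a Spearman correlation of 0.26, and 9269 probes (59.4%) had the same sign. Probes are not independent replicates, and arrays of a set lay on slides numbered in sequence, so this describes the arrays. The replicate set spread wider, with an SD of 0.754 against 0.352 and with 2330 probes at 1 or more in size against 176.

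Probes with a large difference in the first set tended to keep its sign in the replicate set. Of 113 probes at 1 or more in the first set, 86 (76.1%) were positive in the replicate set, where 50.9% of all probes were positive, and their median there was 0.81. Of 63 probes at -1 or less, 52 (82.5%) were negative, against 49.1% of all probes, with a median of -1.78. Both differences were at least 1 for 39 probes and at most -1 for 46, and 3 probes had 1 or more in size with opposite signs. With Fayoumi set apart in the same way the counts were 50, 5 and 7 with r = 0.20, and with broiler set apart 8, 53 and 26 with r = 0.23. The Leghorn difference of spleen at 2 h had r = 0.16 and counts of 227, 45 and 123, and that of cecum at 2 h had r = 0.43 and counts of 227, 173 and 30, with 69.8% of probes of the same sign. The sets were thus more alike in cecum at 2 h than in spleen at 16 h, a difference that was not tested.

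These values depended on the sign given to the replicate arrays. After turning them, every r above changes sign by construction: that of Leghorn in spleen at 16 h was -0.28, and 1, 2 and 85 probes were both at least 1, both at most -1 and opposed. Turning only the Fayoumi and broiler replicate arrays, a setting chosen after seeing the data, left r at 0.11.

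**Figure D2:**
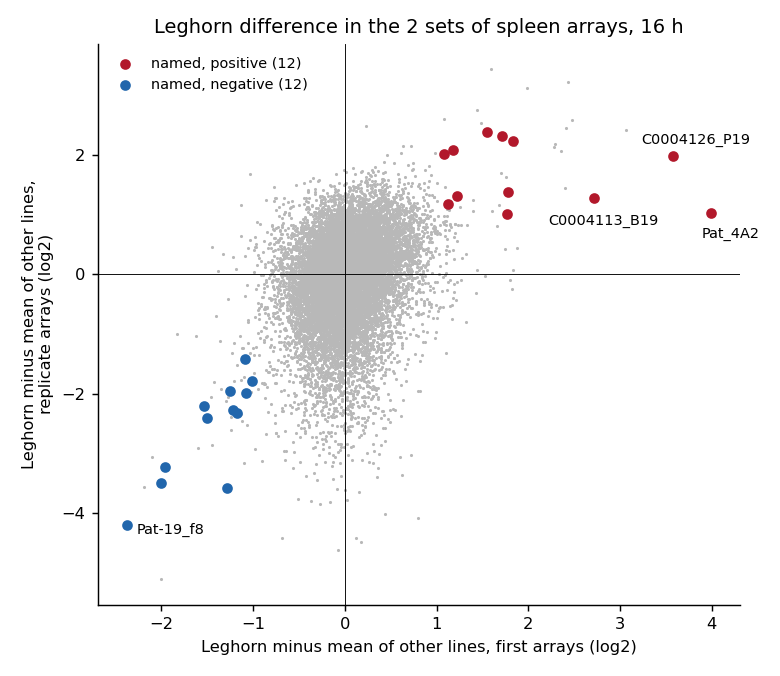
Leghorn minus the mean of Fayoumi and broiler for each of 15609 probes, on the first arrays (horizontal axis, log2) and on the replicate arrays (vertical axis, log2). Pearson's r is 0.28, and C0004126_P19, Pat_4A2 and C0004113_B19 lie at the right with positive values on both axes, while Pat-19_f8 lies at the lower left.

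A rule named probes for description: both Leghorn arrays above, or both below, all 4 others, with a difference of at least 1 in size in each set. It took 22 probes (0.141%) with positive and 25 (0.16%) with negative differences, and 1 of each with the replicate arrays turned. The 12 with the smallest p in each direction are described next. Their selection used the values of these arrays, so the values are descriptions. All 24 had a limma adjusted p of 0.999, and the smallest value any of the 24 reached under another setting was 0.159.

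C0004126_P19 had centred log2 ratios of 4.14 and 3.84 on the first and replicate Leghorn arrays, 0.47 and 1.41 on the Fayoumi arrays and 0.65 and 2.31 on the broiler arrays. Both Leghorn arrays lay at least 1.53 above the highest of the others, and the replicate arrays of the other lines were higher than their first arrays. The means were 3.99 ± 0.21 (SD, n = 2) and 1.21 ± 0.84 (SD, n = 4), a difference of 2.78 (SE 0.77; limma adjusted p = 0.999).

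Pat_4A2 read 4.60 and 3.18 on the Leghorn arrays, 0.72 and 1.81 on the Fayoumi arrays and 0.49 and 2.49 on the broiler arrays. It had the largest difference in size of any probe in the first set, 3.99, and 1.03 in the replicate set, where it ranked 684 from the highest. The overall difference was 2.51 (SE 0.85; limma adjusted p = 0.999).

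C0004113_B19 read 3.72 and 3.38 on the Leghorn arrays, 1.14 and 1.61 on the Fayoumi arrays and 0.87 and 2.60 on the broiler arrays, a difference of 2.00 (SE 0.73; limma adjusted p = 0.999). These 3 probes held ranks 1 to 3 on the first Leghorn array and ranks 1, 3 and 4 on the replicate Leghorn array among 15609. By their overall difference C0004126_P19, Pat_4A2 and C0004113_B19 ranked 2, 7 and 17 from the highest. They were positive on all 6 arrays, so what set the Leghorn arrays apart was a higher positive ratio. On no array of the 6 did any pair of the 3 differ by more than 0.88. With the replicate arrays turned the differences stayed positive, at 0.80 for C0004126_P19, 1.48 for Pat_4A2 and 0.72 for C0004113_B19. This follows from their larger differences in the first set (3.58, 3.99 and 2.72) than in the replicate set (1.98, 1.03 and 1.28). It does not show that the Leghorn difference holds under either sign.

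The 9 remaining positive probes had smaller ratios. C0004118_K8 read 1.76 and 1.85 on the Leghorn arrays and 0.44, -0.32, -0.02 and -0.75 on the first and replicate Fayoumi and the first and replicate broiler arrays. Its difference was 1.97 (SE 0.54; limma adjusted p = 0.999), with the Leghorn arrays close to each other and the others on both sides of 0. C0004120_J19 read 1.59 and 2.81 against -0.58, 0.75, 0.09 and 0.38, and C0004110_C4 read 2.14 and 2.71 against 0.76, -0.14, 0.08 and 0.91. Their differences were 2.04 and 2.02. C0004122_B12 read 1.48 and 1.95 against 0.70, -0.01, -0.08 and -0.25, a difference of 1.63. In these 4 probes every Leghorn array was at 1.48 or more and the others lay between -0.75 and 0.91.

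C0004102_E9, C0004114_H24 and C0004118_H7 had differences of 1.27, 1.15 and 1.55. On the Leghorn arrays C0004102_E9 read 0.98 and 1.43, and C0004114_H24 read 1.25 and 1.35. C0004118_H7 was the closest pair, with 1.23 and 1.20 on the Leghorn arrays against 0.40, -0.52, -0.09 and -1.11 on the others. C0004116_L5, at 1.72 and 0.86, and C0004124_M24, at 1.50 and 0.24, were less even between the Leghorn arrays, with differences of 1.40 and 1.58. Over the 12 positive probes the difference had a median of 1.80, and 7 had a larger difference in the replicate set than in the first. All probes tested had a median of 0.0006, with 95% of them below 0.65. At the lower end 5% were below -0.80 and 1% below -1.34.

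**Figure D3:**
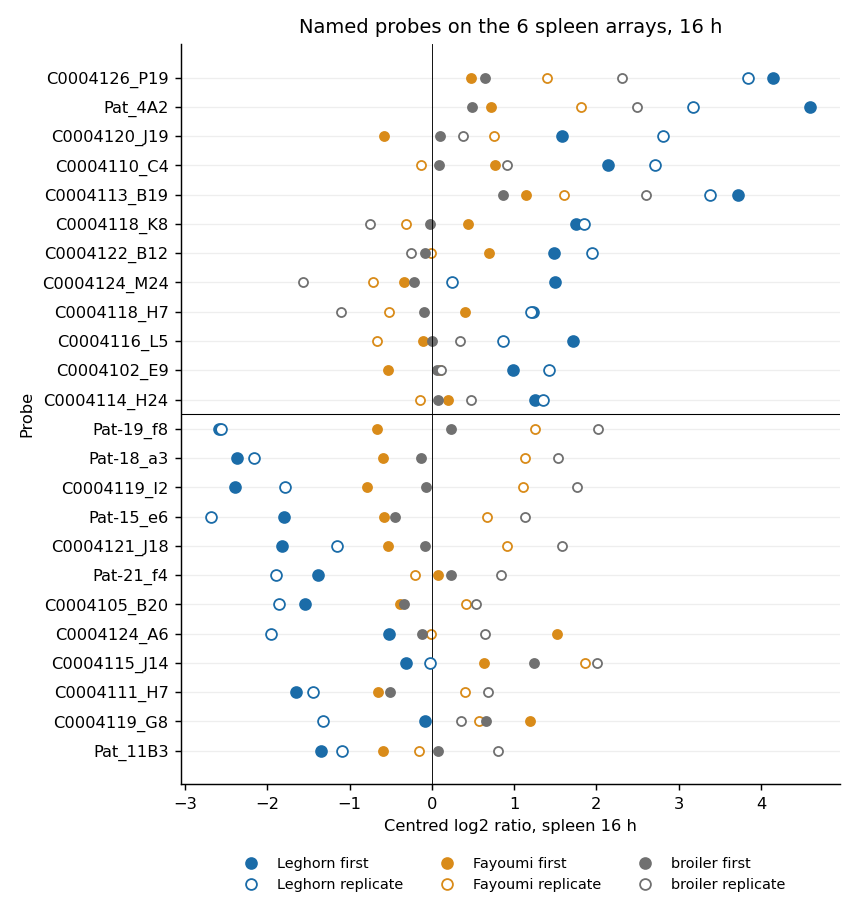
Centred log2 ratios of the 24 named probes on the 6 spleen arrays at 16 h, 1 row per probe and 1 mark per array. Leghorn marks do not overlap the Fayoumi and broiler marks in any row, because that was the rule; the gap between the groups runs from 0.46 to 1.53 in the positive rows and from 0.40 to 1.90 in the negative rows.

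Pat-19_f8 had the smallest p of all probes. It read -2.59 and -2.56 on the Leghorn arrays, -0.66 and 1.26 on the Fayoumi arrays and 0.23 and 2.02 on the broiler arrays. The Leghorn arrays nearly coincided, while the 4 others spread widely, with the replicate arrays higher. The difference was -3.29 (SE 0.70; limma adjusted p = 0.999), from means of -2.58 ± 0.02 (SD, n = 2) and 0.71 ± 1.17 (SD, n = 4).

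C0004119_I2 read -2.39 and -1.79 against -0.78, 1.11, -0.07 and 1.77, a difference of -2.59. Pat-18_a3 read -2.36 and -2.16 against -0.60, 1.13, -0.13 and 1.53, a difference of -2.75. On each of the 6 arrays these 3 negative probes lay within 0.77 of one another, with the order first Fayoumi, first broiler, Fayoumi replicate and broiler replicate from low to high in all 3. Pat-15_e6 had the same order, with -1.80 and -2.68 on the Leghorn arrays, -0.58, 0.67, -0.45 and 1.13 on the others and a difference of -2.43. The order was also that of C0004111_H7, C0004115_J14, C0004121_J18 and C0004105_B20, so it was not particular to these probes.

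Of the 8 remaining negative probes, Pat-21_f4 read -1.38 and -1.90 on the Leghorn arrays against 0.08, -0.20, 0.23 and 0.84, a difference of -1.87. C0004115_J14 differed in kind: its Leghorn arrays were near 0, at -0.32 and -0.02, and the 4 others were positive, at 0.63, 1.87, 1.25 and 2.01. C0004119_G8 read -0.08 and -1.32 against 1.20, 0.57, 0.66 and 0.36. In all other lines' arrays of the last 2 probes the ratio was on the positive side, which held for 2 of the 12 negative probes. C0004111_H7, C0004121_J18, C0004124_A6, Pat_11B3 and C0004105_B20 had differences of -1.53, -1.95, -1.75, -1.25 and -1.75.

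All 12 negative probes had a larger difference in the replicate set than in the first, with medians of -2.30 and -1.27. All 12 changed sign with the replicate arrays turned, and so did 7 of the 12 positive probes. The probes that kept their sign were C0004126_P19, Pat_4A2, C0004113_B19, C0004116_L5 and C0004124_M24. Their differences were larger in the first set than in the replicate set, and this alone keeps the sign. Clone groups are the opening letters of the identifiers. The C00041 group gave 11 of the 12 positive and 7 of the 12 negative probes, and the Pat group gave 1 and 5, where C00041 holds 73.3% and Pat 12.7% of all probes. In the 22 and 25 probes that met the rule, C00041 gave 20 and 12 and Pat gave 2 and 13.

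Among the 22 positive probes, 5 had values under -3 on the broiler replicate array, a group picked out after the values were seen: C0004117_J15, C0004117_J3, C0004117_M2, C0004117_M6 and C0004122_O21. C0004117_J3 read 0.03 and 0.43 on the Leghorn arrays, -1.58 and -0.19 on the Fayoumi arrays and -1.55 and -5.83 on the broiler arrays. Its Leghorn arrays were near 0, and 1 broiler array made most of the difference of 2.52 (SE 1.25; limma adjusted p = 0.999). Among spleen arrays at 2 h these probes ran from -5.36 to 6.29, both for C0004122_O21 on the broiler arrays.

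The 3 probes whose identifiers start with PEN showed no separation. PEN_c-rel, whose identifier recalls c-rel, a member of the NF-kB transcription factor family, read 0.46 and 0.61 on the Leghorn arrays, 0.003 and -1.05 on the Fayoumi arrays and 0.19 and 0.52 on the broiler arrays. Its ranges overlapped, and the difference was 0.62 (SE 0.42; limma adjusted p = 0.999). PEN_mtd differed by -0.25 and PEN_TF-10 by 0.36, also with overlapping arrays. The files do not say whether these spots hold the genes their names recall.

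The other tissue and time groups hold 17 usable arrays. Their values did not enter the differences by which probes were named, but their spread entered the p-values that ranked them, so the next comparison is not fully independent of the naming. A contrast of Leghorn with the mean of the other lines, averaged over spleen at 2 h and cecum at 2 h and 16 h, was fitted on these 17 arrays alone. The contrast was chosen after seeing the data. In limma's test 2 of 15609 probes (0.0128%) passed, both positive, and both were named above. C0004113_B19 differed by 3.48 (SE 0.45; adjusted p = 0.0312) and Pat_4A2 by 3.52 (SE 0.50; adjusted p = 0.0429). C0004126_P19 differed by 2.83 (SE 0.47; adjusted p = 0.159) and did not pass in this fit. At an unadjusted p under 0.05 there were 408 probes (2.61%).

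These 2 calls lay near the threshold, and most fits with 1 array left out lost them while the differences stayed large. Without the only usable broiler cecum array at 16 h, the contrast there used Fayoumi alone. With each of the 17 arrays left out in turn, C0004113_B19 passed in 5 fits and Pat_4A2 in 4. Both passed without the first Fayoumi, the first broiler or the replicate Leghorn spleen array at 2 h and with the first Leghorn array of cecum at 2 h left out, and C0004113_B19 also without the replicate Leghorn cecum array at 2 h. In the 12 other fits neither passed. The adjusted p ran from 0.000395 to 0.286 for C0004113_B19 and from 0.0210 to 0.395 for Pat_4A2, while the differences ran from 2.89 to 4.06 and from 3.18 to 3.86. C0004126_P19 passed in 2 of the 17 fits and differed by 2.39 to 3.28. After scaling to equal spread neither probe passed (adjusted p = 0.312 and 0.297), nor with array weights (0.0585 for both). Both passed as deposited (adjusted p = 0.00784 for both) and after quantile normalization (0.0240 for both), under either replicate block and with the plant spot covariate. Under either block, in which 5 probes passed, and with the covariate, in which 3 passed, C0004126_P19 passed too (adjusted p = 0.00312 by tissue and time, 0.00535 by tissue and 0.0164 with the covariate). With the replicate arrays turned the differences were -0.91 for C0004113_B19, -0.43 for Pat_4A2 and -1.11 for C0004126_P19.

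The values behind the 3 differences were uneven between lines in nearly every group. C0004126_P19 ran from 0.42 through a median of 3.23 to 4.20 on the 6 Leghorn arrays outside spleen at 16 h, and from -1.51 through -0.04 to 1.05 on the 11 arrays of the other lines. Pat_4A2 ran from 1.07 through 3.13 to 4.76 on the Leghorn arrays and from -1.05 through -0.42 to 1.22 on the others. C0004113_B19 ran from -0.09 through 4.14 to 4.77 and from -1.07 through 0.34 to 1.04. In each probe 5 of the 6 Leghorn arrays lay above all 11 others, and the exception was the first Leghorn cecum array at 2 h. Over all 8 Leghorn arrays of the series the ratio was positive on 8, 8 and 7 arrays for C0004126_P19, Pat_4A2 and C0004113_B19. Across the 17 arrays the 3 probes correlated pairwise at 0.87, 0.94 and 0.89, as a description over arrays that share lines and slide number ranges. The trio was singled out after its values were seen.

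**Figure D4:**
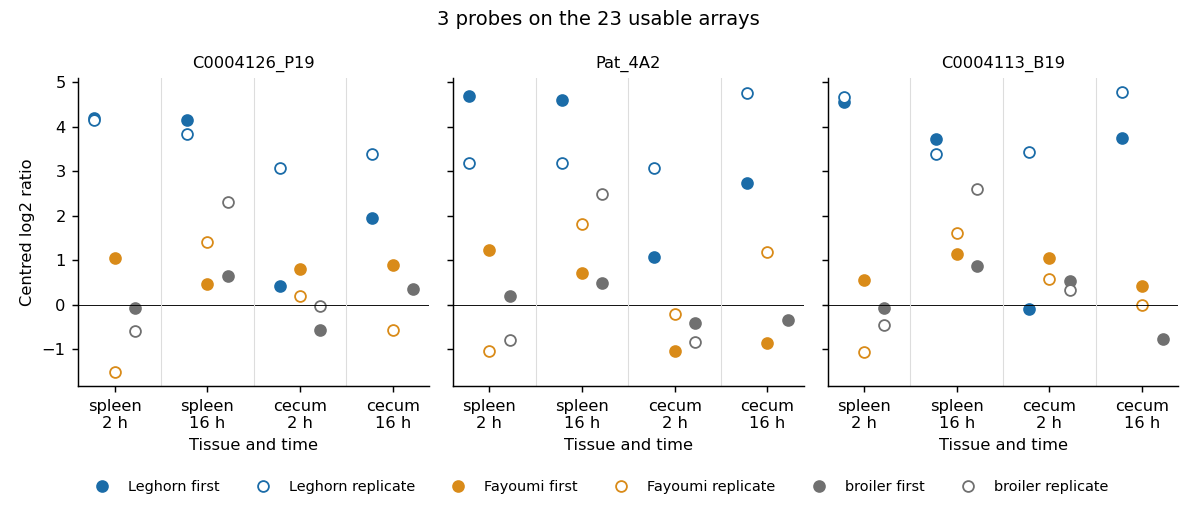
Centred log2 ratios of C0004126_P19, Pat_4A2 and C0004113_B19 on the 23 usable arrays, by tissue and time, with 1 mark per array. For each probe 5 of the 6 Leghorn arrays outside spleen at 16 h lie above all 11 arrays of the other lines, and the exception is the first Leghorn cecum array at 2 h.

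Averaged over the other groups, the rest of the named probes did not share this. Over the same 17 arrays, the 9 positive probes outside the trio had 4 positive and 5 negative differences. None of the 9 was positive in every set of first or replicate arrays, and none reached an unadjusted p under 0.05 in the main fit. C0004110_C4 did so in limma's test by tissue and time (0.0377), by tissue (0.0339) and with the plant spot covariate (0.00735). Its adjusted p was 0.588 or more there. Some of the 9 had larger differences in single groups, picked out after the values were seen. C0004118_K8 differed by 2.51 and 1.73 in the first and replicate sets of cecum at 16 h, the second against Fayoumi alone. C0004110_C4 differed by 1.05 and 2.05 in spleen at 2 h. Of the 6 sets, C0004118_K8 was positive in 4 and negative in 2, and C0004110_C4 in 5 and 1. None of the 12 negative probes passed in limma's test or reached an unadjusted p under 0.05 in the main fit, and 7 had positive and 5 negative differences. C0004119_G8, with a positive difference, reached limma unadjusted p from 0.0109 to 0.0338 after scaling, after quantile normalization, under either block and with the covariate. C0004111_H7 reached 0.0407 with the covariate. Pat-19_f8, the most negative of the 12 in spleen at 16 h, differed by -0.15 over these arrays, and C0004119_I2 and Pat-18_a3 by -0.13 and 0.40. The sets behind these averages did not match. In spleen at 2 h the 3 probes differed by -2.35, -0.95 and -1.79 in the first set and by 0.49, 0.53 and 0.43 in the replicate set. Even so, these 3 probes, grouped for a similar profile, had pairwise correlations of 0.85, 0.84 and 0.69 on the 17 arrays. No other pairs of probes were correlated for comparison, here or for the 3 positive probes. Whether either set goes together more than other probes was not tested.

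Whether the Leghorn difference itself changed between times or tissues was tested for all probes. From 2 h to 16 h in spleen 0 probes (0%) passed in limma's test, with 866 (5.55%) at an unadjusted p under 0.05 and a smallest adjusted p of 0.0504. Without the first Leghorn spleen array at 16 h, 65 passed, of which 64 were negative, and 1197 had an unadjusted p under 0.05. Same-numbered arrays of the lines deviated together, and under a replicate block for each tissue and time 30 passed, with 1940 unadjusted. With the plant spots as a covariate 104 passed. Between spleen and cecum at 16 h 0 probes (0%) passed, with 277 (1.77%) unadjusted. For comparison, the Leghorn difference at 2 h in spleen gave 9 calls (0.0577%) and 686 probes (4.39%) unadjusted. Those calls depended on the setting. There were 0 after scaling, after quantile normalization, with array weights, with turned replicate arrays or on the arrays of that contrast alone. Calls numbered 3 as deposited, 6 under the block within each tissue, 64 with the plant spot covariate and 88 under the block for each tissue and time. In cecum it gave 0 calls (0%) at either time (at 16 h, 1 as deposited and 2 with the plant spot covariate), with 1214 (7.78%) unadjusted at 2 h and 446 (2.86%) at 16 h.

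The clone groups were compared as wholes. The 1983 Pat clones had medians of -0.17 and 0.12 on the Leghorn arrays, -0.24 and 0.33 on the Fayoumi arrays and -0.07 and 0.54 on the broiler arrays. First arrays were negative and replicate arrays positive in every line, and the Leghorn replicate array was the lowest of the 3 replicates. The difference of means was -0.17, with an exact two-sided permutation p of 0.667, where 2 arrays against 4 cannot go below 0.133. DT40subNB (1798 probes) and DKFZ426 (378 probes) had differences of -0.14 and -0.08, and C00041 (11447 probes) of 0.07, each with the same exact p. The permutation exchanged arrays freely between the first and replicate sets, although same-numbered arrays deviated together between lines. Its p therefore cannot decide whether the lines differed. The median of the whole array is set to 0, and C00041 holds most probes, so its sign is tied to that of the others.

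The share of probes whose Leghorn arrays lay below all 4 others was 10.04% for Pat, 8.34% for DT40subNB and 10.1% for DKFZ426, against 5.22% for C00041 and 6.3% for all probes. The share above was 2.42%, 2.17%, 2.12% and 5.67% in the same order, against 4.77% for all probes. With the replicate arrays turned, the shares below were 1.87%, 2.89%, 2.91% and 5.91% and the shares above 9.13%, 6.01%, 2.91% and 4.45% in the same order, so the excess below did not remain. The differences of group medians were larger in the replicate set (-0.32, -0.21 and -0.13 for Pat, DT40subNB and DKFZ426) than in the first (-0.02, -0.06 and -0.04). Turning reverses the replicate set by construction, so it is no check of the excess. These shares were not tested. Within the identifiers, the part before the well reads like a plate, although the labels do not say so. In the replicate set the median Leghorn difference was negative in each of the 21 Pat plates, from -0.49 to -0.09, and in each of the 18 DT40subNB plates, from -0.42 to -0.16, counting plates with at least 60 probes. It was positive in all of C00041 plates 01 to 25, from 0.09 to 0.25, and from -0.19 to 0.01 in the 5 C00041 plates 26 to 30. In the first set the medians of these plates lay between -0.14 and 0.08. Turning the replicate arrays turns the sign of their plate medians by construction.

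**Figure D5:**
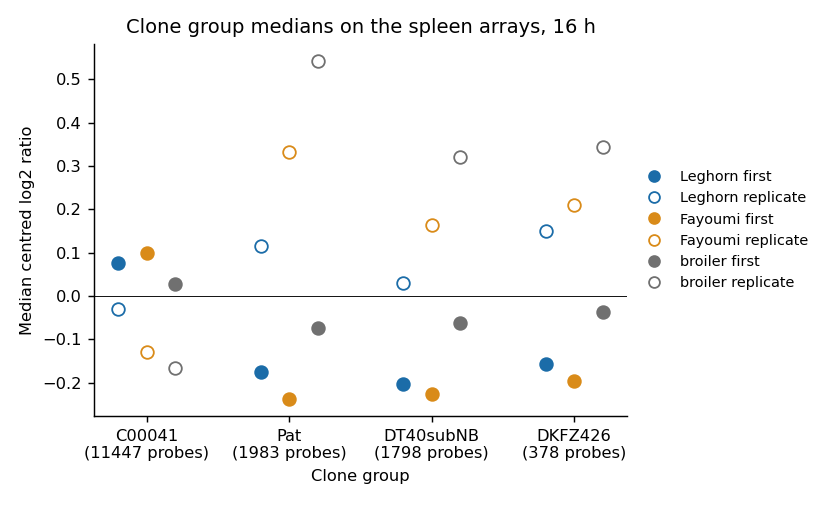
Median centred log2 ratio of the probes of each clone group on the 6 spleen arrays at 16 h, with 1 mark per array. The Pat, DT40subNB and DKFZ426 medians are below 0 on the first arrays and above 0 on the replicate arrays of all 3 lines, and C00041 medians run the other way.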

How the data were processed

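The values deposited by the authors were taken as log2 ratios between channels, since they fall on either side of 0. The scanner, correction, normalization, dyes and log base were not given in the sources used here. The table has 15769 rows. The 160 control spots were left out, and each array was centred on its median over 15609 probes. The broiler cecum 16 h replicate column holds 3 different values and blanks and was left out, so 23 arrays were used.

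Means of 12 line, tissue and time groups were fitted by lmFit and eBayes of limma 3.58.1 (R 4.3.3, 11 residual degrees of freedom) and compared by contrasts, two-sided, with Benjamini-Hochberg adjustment over all probes and a threshold of 0.05. Clone group medians were compared by exact permutation (Python 3.11.15, scipy 1.17.1). Named probes were the 12 per direction with the smallest p among those whose Leghorn arrays lay outside all 4 others, with a difference of at least 1 in both sets, plus those starting PEN. Array ratios have no depth, and the number of arrays limited precision. Other limits on the precision of a ratio were not assessed.

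The comparison, the named-probe rule, the gene lists and the tests were chosen with earlier results of these data known. Alternatives were values as deposited, scaled spread, quantile normalization, turned signs, fewer arrays, replicate blocks, array weights, a plant spot covariate and each array left out.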

Additional observations from a re-analysis of the deposited data

Results flagged for a closer look

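C0004102_E9 was picked out because 1 of the 4 Fayoumi and broiler arrays of spleen at 16 h lay far from the rest: the first Fayoumi array read -0.54, and the other 3 read 0.06 to 0.11. The chicken genomic control spots were picked out in the same arrays, where the median of the first Fayoumi array was 0.16 and those of the others were -0.26, -0.27 and -0.34. Of 33 sets of 4 arrays examined, these 2 passed Dixon's 95% limit, and chance alone passes about 1 in 20.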

How the results depend on the processing

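Leghorn against the other lines stayed at 0 probes past the threshold under every setting run, with 35 to 1822 at an unadjusted p under 0.05. Among the spleen 16 h contrasts, counts that moved were Leghorn against broiler (2 as deposited) and the change from 2 h to 16 h (30 under a replicate block for each tissue and time, 104 with plant spots as a covariate, and 0 to 65 without single arrays). Same-numbered arrays deviated together between lines (0.57, 0.37 and 0.71), but each line has only 1 pair and the labels tie no number to a litter or day. A replicate block for each tissue and time left the main count at 0 (937 unadjusted) and within each tissue at 0 (285).

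With replicate arrays turned, r between the first and replicate sets was -0.28, and 0.11 with only the Fayoumi and broiler replicate arrays turned. Clone group differences became -0.052 for C00041, 0.15 for Pat, 0.077 for DT40subNB and 0.044 for DKFZ426. As deposited they were 0.24, 0.27 and 0.32 for Pat, DT40subNB and DKFZ426, and without single arrays DKFZ426 ran from -0.24 to 0.069. Turning reversed C0004118_K8 (-0.42), C0004102_E9 (-0.052), C0004120_J19 (-0.21), C0004114_H24 (-0.033), C0004122_B12 (-0.45), C0004110_C4 (-0.30) and C0004118_H7 (-0.47). It also reversed Pat-19_f8 (0.91), C0004119_I2 (0.63), Pat-18_a3 (0.75), C0004111_H7 (0.45), Pat-21_f4 (0.34), Pat-15_e6 (1.15), C0004115_J14 (0.35, and 0.33 with only the Fayoumi and broiler replicates turned), C0004121_J18 (0.45), C0004124_A6 (0.53), C0004119_G8 (0.39), Pat_11B3 (0.17) and C0004105_B20 (0.57). Over the 17 other arrays it reversed Pat_4A2 (-0.43), C0004113_B19 (-0.91) and C0004126_P19 (-1.11). PEN_c-rel became -0.26. PEN_mtd became 0.40, 0.16 as deposited, 0.26 with only the Fayoumi and broiler replicates turned, and ran from -0.52 to 0.023 without single arrays. PEN_TF-10 became -0.41 and -0.11 under the same turnings and ran from -0.045 to 0.78 without single arrays. Turning all replicate arrays changes the sign of r by construction. It reverses a spleen 16 h difference only where the replicate set's difference is larger in size than the first set's. For the other settings the cause of a reversal was not tested.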
